A study of Mus musculus with 71 samples.

Results

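The MHC class I presentation genes are 9 genes, B2m, H2-K1, H2-D1, H2-T23, Tap1, Tap2, Tapbp, Psmb8 and Psmb9, out of 37681 genes in the tables of the study. They were chosen by symbol from what is known of the pathway, with earlier cocaine against saline values of these same libraries in view, so every value of that comparison below is a description and no test of it is used as support. RNA-seq libraries came from micro-punches taken from the nucleus accumbens (NAc), ventral tegmental area (VTA) and prefrontal cortex (PFC) of adult wild-type C57BL/6 mice of both sexes (C57BL/6J in the study's methods). All mice, saline controls included, had learned to respond for food and carried a jugular catheter before they self-administered saline or cocaine, the latter at 0.7 mg/kg/infusion, in daily 2-h sessions for 21 days, and tissue was taken after 1-day or 28-days of abstinence. The 12 groups held 6 libraries each, except saline VTA at 28-days, which held 5, for 71 in all (35 saline, 36 cocaine). The sex and the animal behind each library are not given in the labels, so p-values measure the spread between libraries. The study's methods describe the 3 regions as dissected from the same brains, so libraries of different regions can share a mouse, while the fits across regions treat them as independent.

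Class I molecules show peptides from inside a cell at its surface, where T cells and natural killer cells can read them. Psmb8 and Psmb9 encode catalytic subunits of the immunoproteasome, which cuts proteins into peptides, and Tap1 and Tap2 form the transporter that carries these peptides into the endoplasmic reticulum. Tapbp encodes tapasin, which holds an empty class I molecule beside the transporter, and a loaded molecule consists of a heavy chain and the invariant light chain beta-2-microglobulin, encoded by B2m. H2-K1 and H2-D1 are the classical heavy chains of this strain, and H2-T23 encodes Qa-1, a non-classical heavy chain that presents leader peptides of other class I molecules to NKG2 receptors. In the brain, endothelial cells and microglia are well-known sites of class I expression, neurons express it at lower levels, and interferons induce most of these genes together.

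Of the 9 genes, 8 lie on chromosome 17 (mm9), in or near the class I and class II regions of the MHC. Tapbp (34052844 to 34066235, plus strand), H2-K1 (34132962 to 34137278, minus), Psmb9 (34318932 to 34324697, minus), Tap1 (34324498 to 34334170, plus), Psmb8 (34334666 to 34338399, plus) and Tap2 (34340472 to 34353266, plus) are near neighbours, H2-D1 (35399675 to 35404444, plus) and H2-T23 (36166718 to 36169800, minus) lie further along, and B2m is on chromosome 2 (121973422 to 121978819, plus). The 250 bases upstream of the RefSeq start were read for the 8 members listed in the RefSeq promoter table (GRCm38.p6), all but Tap2. The windows of the light chain and the 3 heavy chains are shown because they hold the sequence elements through which interferon and inflammatory signals are known to reach class I genes, and because those of H2-K1 and H2-D1 are near copies. Capitals mark matches, on either strand, to the interferon-stimulated response element searched as GAAANNGAA (B2m and H2-T23), to a form with 1 base less between its repeats, GAANTGAAA (H2-K1 and H2-D1), and to the NF-kB site searched as GGGATTCCC (H2-K1 and H2-D1).
B2m (chr2:122147437-122147686, plus strand): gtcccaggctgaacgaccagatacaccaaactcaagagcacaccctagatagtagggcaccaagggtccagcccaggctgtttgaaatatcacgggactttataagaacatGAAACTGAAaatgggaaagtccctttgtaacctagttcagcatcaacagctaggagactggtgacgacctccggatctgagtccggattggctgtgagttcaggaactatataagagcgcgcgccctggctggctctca
H2-K1 (chr17:34000348-34000597, minus strand): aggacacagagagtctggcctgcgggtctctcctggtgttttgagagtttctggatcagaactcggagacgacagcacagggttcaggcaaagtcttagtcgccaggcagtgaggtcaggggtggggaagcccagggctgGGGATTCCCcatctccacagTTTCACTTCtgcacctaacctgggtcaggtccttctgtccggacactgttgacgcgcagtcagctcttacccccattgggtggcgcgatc
H2-D1 (chr17:35262844-35263093, plus strand): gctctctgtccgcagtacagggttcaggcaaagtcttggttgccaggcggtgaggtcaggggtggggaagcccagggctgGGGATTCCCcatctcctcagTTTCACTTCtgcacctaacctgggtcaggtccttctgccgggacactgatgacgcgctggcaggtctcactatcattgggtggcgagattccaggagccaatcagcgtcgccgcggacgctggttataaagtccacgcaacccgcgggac
H2-T23 (chr17:36032702-36032951, minus strand): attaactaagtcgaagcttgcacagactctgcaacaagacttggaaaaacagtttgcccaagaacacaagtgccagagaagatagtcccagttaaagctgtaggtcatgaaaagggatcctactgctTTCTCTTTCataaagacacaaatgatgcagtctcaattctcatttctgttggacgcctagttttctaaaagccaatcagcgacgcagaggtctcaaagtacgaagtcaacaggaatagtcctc

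The NF-kB letters lay at -110 to -102 in H2-K1 and at -170 to -162 in H2-D1, counted from the RefSeq start, and were held by 98 of 32536 mouse promoter windows of this length (0.301%). The response element lay at -139 to -131 in B2m and at -123 to -115 in H2-T23, and 7.15% of all windows held it. The shorter-spaced form lay at -90 to -82 in H2-K1 and -150 to -142 in H2-D1 and was held by 1.51% of windows. It was searched only after the windows had been read, and the motifs were shortened to at most 9 letters then too. The shares of windows are thus for letters set with these windows in view. The longest run of bases shared by the H2-K1 and H2-D1 windows was 47, against 12 for H2-D1 and H2-T23 and 7 for H2-K1 and H2-T23. CCAAT, the letters of the Y box and part of no other motif searched, was found in 7 of the 8 windows (all but Psmb8) and in 33.8% of all windows, and the interferon-gamma activated sequence TTCNNNGAA in Psmb8 alone (7.04% of all windows). The Tap1 and Psmb9 windows overlap on opposite strands, since the 2 genes start back to back. Their CCAAT matches are the same bases, so 1 site is counted for both genes. A match is a description of the letters and not of a bound factor.

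The heavy chains resemble each other and other class I genes, and this limits how firmly reads can be given to 1 of them. Only annotated protein-coding transcripts were searched. Of all runs of 50 bases in them, 7.29% of H2-K1, 12.8% of H2-D1 and 14.8% of H2-T23 also occurred in a protein-coding transcript of another gene. With runs of 100 bases the shares were 0% for H2-K1, 3.91% for H2-D1 and 4.44% for H2-T23. Tap1, Tap2 and Tapbp shared between 0.708% and 1.13% of runs of 50 bases, and B2m and Psmb8 shared none. Pseudogenes and non-coding transcripts were left out of the search, so all these shares are lower bounds. Psmb9 shared 99.9% of its runs with a second model of the same gene in the annotation. Psmb9 is listed at 0 reads in all 71 libraries and its second model at 1 read in 1 library, so the level of the gene cannot be read from these tables and it is left out of every comparison. The other 8 members passed the filter on low values in every table.

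The libraries held 20971967 to 49700932 reads assigned to genes. Levels are given as RPKM, the reads on a gene per kilobase of its length and scaled to the reads of the library, which allows genes to be compared with each other. Markers of dopamine neurons summed to 1140 to 5470 CPM (counts scaled to the reads of the library, with no account of gene length) in the VTA libraries and to at most 40.9 elsewhere, and markers of medium spiny neurons to 1960 to 5150 in the NAc. In the PFC the medium spiny markers summed to at most 204, except for 1 saline library at 28-days (library 4) with 1780, which also had the lowest sum of cortical excitatory markers of its group (1430). Cortical excitatory markers varied widely in the NAc, from 38.6 to 876 CPM at 1-day and from 54.3 to 643 at 28-days. Their part in the NAc values was not tested. Markers of T and NK cells summed to at most 2.34 CPM in any library. The VTA libraries differed most in connective tissue: the summed level of 6 fibroblast and meninges markers was 697 CPM in cocaine library 6 at 1-day against 33.4 to 269 in the other 11, and 712 in saline library 4 at 28-days against 34.8 to 279 in the other 10. The members' cocaine, region and interaction values and the list medians of the VTA are therefore also given without these libraries. In these bulk samples, fewer cells of a type and less RNA per cell cannot be told apart.

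B2m was the most abundant member in every group. In saline mice at 28-days its level was 58.2 ± 6.30 RPKM in the NAc (SD, n = 6; lowest 48.3, median 59.1, highest 64.7) and 65.3 ± 5.85 in the PFC (n = 6; 54.3, 67.1 and 69.5). In the VTA it was 122 ± 36.8 (n = 5), with 88.8, 88.5, 110.7, 164.4 and 157.4 in libraries 1 to 5. Every VTA library was thus above every NAc and PFC library.

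The classical heavy chains followed. H2-D1 was at 20.4 ± 3.07 RPKM in the NAc (lowest 16.0, median 20.4, highest 24.1), 22.5 ± 2.07 in the PFC (19.1, 23.2 and 24.4) and 50.9 ± 17.4 in the VTA, where the libraries read 43.9, 33.6, 39.9, 76.2 and 61.2. H2-K1 was at 15.9 ± 2.79 in the NAc (12.4, 15.7 and 20.6), 16.97 ± 1.72 in the PFC (14.8, 17.5 and 18.6) and 39.9 ± 16.8 in the VTA (28.1, 24.1, 31.5, 61.0 and 54.6). For both, the lowest VTA library lay above the highest NAc and PFC library, while the NAc and PFC overlapped. H2-K1 was below H2-D1 in every one of the 71 libraries, with a ratio between 0.609 and 0.901 and group medians between 0.646 and 0.821. The bases they share set a limit on how exact that ratio is.

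H2-T23 had another order. It was at 6.72 ± 0.6999 RPKM in the saline NAc at 28-days (lowest 5.83, median 6.87, highest 7.40), 10.6 ± 1.46 in the PFC (8.76, 10.5 and 12.9) and 10.6 ± 4.59 in the VTA (8.12, 6.71, 7.92, 17.9 and 12.3). All PFC libraries lay above all NAc libraries, and the VTA overlapped both. The loading genes covered a wide range of levels. Tapbp was at 11.3 ± 1.39 RPKM in the NAc, 11.1 ± 1.24 in the PFC and 20.9 ± 4.74 in the VTA, and Tap2 at 2.52 ± 0.237, 2.67 ± 0.276 and 7.18 ± 1.72. Tap1 was at 0.947 ± 0.191, 0.929 ± 0.141 and 2.32 ± 0.816, and the immunoproteasome subunit Psmb8 at 1.82 ± 0.284, 1.61 ± 0.260 and 3.75 ± 1.19. For each of these 4 genes the VTA libraries lay above all NAc and PFC libraries. The share of all genes separated in this way was not counted, here or for B2m, H2-D1 and H2-K1. By edgeR 32.6% of all genes were called higher in the VTA than in the NAc and 29.8% higher than in the PFC. Tap1 rested on 95 to 166 reads per saline NAc library and Psmb8 on 105 to 142, the fewest of the 8. Between genes, the ranges of H2-D1 and H2-K1 in saline mice at 28-days overlapped in the NAc and VTA and not in the PFC, and those of H2-T23 and Tapbp overlapped in the VTA and PFC and not in the NAc.

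**Figure D1:**
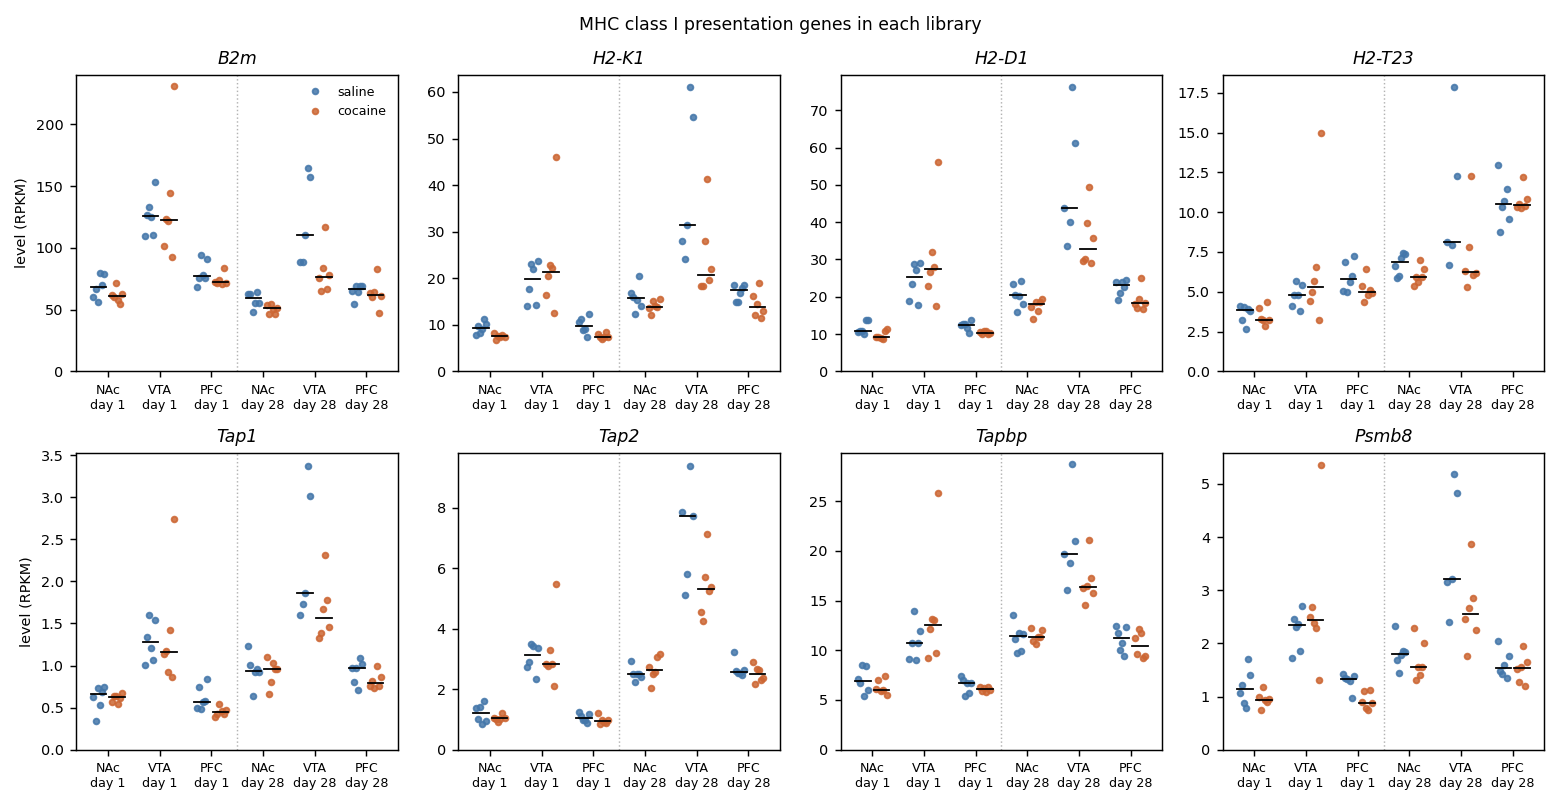
Level of 8 MHC class I presentation genes in each library, in RPKM (y axis, linear, starting at 0, 1 panel per gene), by region and day of abstinence (x axis), with saline in blue, cocaine in orange, 1 point per library and a bar at the group median. In saline libraries at day 28 the VTA stands above the NAc and PFC for every gene but H2-T23. A cocaine VTA library at day 1 (231 RPKM for B2m) and 2 saline VTA libraries at day 28 (164 and 157) lie highest in their groups.

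The contrasts between regions in saline mice were not the values in view when the members were chosen, but they share saline libraries with those values and so are not independent of them. They were tested with edgeR's quasi-likelihood test over 17181 genes with Benjamini-Hochberg adjustment. A gene was called at an adjusted p under 0.05. Of the 8 members, 8 were called lower in the NAc than in the VTA and 0 higher, while 32.6% of all genes were called higher in the VTA and 29.8% higher in the NAc. The members' median log2 fold change (NAc over VTA) was -1.08, against -0.03 over all genes. Tap2 differed most, with a log2 fold change of -1.40 ± 0.12 (SE) and an adjusted p of 1.99e-08 by edgeR. The classical heavy chains H2-K1 (-1.22 ± 0.20, adjusted p = 3.71e-05) and H2-D1 (-1.21 ± 0.16, adjusted p = 3.79e-06) and the transporter subunit Tap1 (-1.19 ± 0.19, adjusted p = 3.74e-05) differed by close to the same amount. The light chain B2m (-0.96 ± 0.14, adjusted p = 1.41e-05), Psmb8 (-0.94 ± 0.17, adjusted p = 0.000152) and Tapbp (-0.78 ± 0.11, adjusted p = 1.27e-05) differed less. H2-T23 had the smallest difference (-0.54 ± 0.19, adjusted p = 0.0197), and it was no longer called without saline VTA library 4 (-0.29 ± 0.15, adjusted p = 0.103). Without that library the other 7 were called, from -1.30 (Tap2) to -0.65 (Tapbp), beside 31.1% of all genes higher in the VTA.

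Between the VTA and PFC, 7 of 8 members were called higher in the VTA, where 29.8% of all genes were called higher and 28.1% lower. Tap2 was 2.42 times as high (log2 1.28 ± 0.12, edgeR adjusted p = 6.87e-08), Tap1 2.26 times (1.18 ± 0.19, adjusted p = 4.89e-05), H2-K1 2.12 times (1.08 ± 0.20, adjusted p = 0.000141) and H2-D1 2.04 times (1.03 ± 0.16, adjusted p = 2.65e-05). Psmb8 was 2.11 times as high (adjusted p = 4.22e-05), and B2m (adjusted p = 0.000204) and Tapbp (adjusted p = 1.9e-05) were each 1.69 times as high. The exception was H2-T23, with a log2 fold change of -0.16 ± 0.19 (adjusted p = 0.502). Without saline VTA library 4 it was called lower in the VTA (-0.41, adjusted p = 0.0278), beside 26.1% of all genes, and the other 7 were called higher, from 0.64 (Tapbp and B2m) to 1.18 (Tap2), beside 28.4%.

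The NAc and PFC were closer. Only H2-T23 of the 8 members was called, at 0.616 times the PFC level in the NAc (log2 -0.70 ± 0.18, edgeR adjusted p = 0.00516), where 20.7% of all genes were called higher in the PFC and 20% higher in the NAc. The other 7 had log2 fold changes between -0.21 (B2m, SE 0.14, adjusted p = 0.249) and 0.14 (Psmb8, SE 0.17, adjusted p = 0.551). A p above the threshold does not show that their levels were equal.

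The same contrasts were run on the saline libraries at 1-day and on the cocaine libraries at 28-days. At 1-day the NAc entered as deposited counts and the VTA and PFC as reads recovered from RPKM. At 1-day, 8 of 8 members were again called lower in the NAc than in the VTA, beside 33.3% of all genes, and H2-T23 was again the only member called between the NAc and PFC (-0.76 ± 0.12, adjusted p = 2.35e-05), where 20.4% of all genes were called higher in the PFC. H2-T23 was also called lower in the VTA than in the PFC at 1-day (-0.44 ± 0.12, adjusted p = 0.00245) and in the cocaine libraries at 28-days (-0.69 ± 0.14, adjusted p = 0.000244). In the cocaine libraries 7 of 8 members were called lower in the NAc than in the VTA, beside 35% of all genes, all but H2-T23 (-0.20 ± 0.14, adjusted p = 0.221). There B2m was called lower in the NAc than in the PFC (-0.38 ± 0.13, adjusted p = 0.0147), as were 26.5% of all genes, and was not called between the VTA and PFC (0.22 ± 0.12, adjusted p = 0.124). Each region was deposited as a table of its own, so region and table cannot be told apart.

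**Figure D2:**
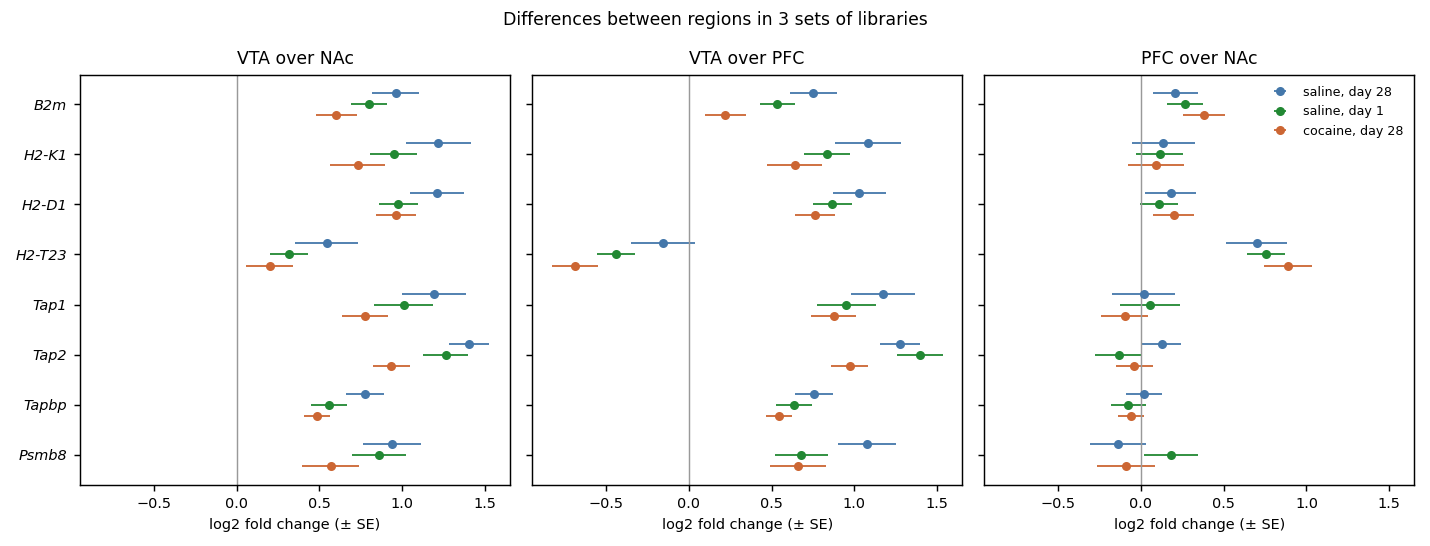
Log2 fold change between regions (x axis, point and SE bar) of 8 members (y axis) for VTA over NAc, VTA over PFC and PFC over NAc, in saline libraries at day 28 (blue), saline libraries at day 1 (green) and cocaine libraries at day 28 (orange). The members sit to the right of 0 in the VTA over NAc panel, and H2-T23 is the member that sits left of 0 against the PFC and right of 0 in the PFC over NAc panel in all 3 sets.

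Markers of vessels and connective tissue were also higher in the VTA than in the NAc. In that contrast 32.6% of all genes were called higher in the VTA and 29.8% higher in the NAc. In saline mice at 28-days, edgeR called 6 of 6 fibroblast and meninges markers, 5 of 5 markers of perivascular macrophages and 10 of 13 endothelial markers higher in the VTA than in the NAc, and 6 of 6 markers of oligodendrocytes. Of 14 microglia markers, 3 were called higher in the NAc and 1 in the VTA. Without saline VTA library 4, 5 of the 13 endothelial markers and 1 of the 14 microglia markers were called higher in the VTA and 0 of either in the NAc, with the other 3 counts as before. There 31.1% of all genes were called higher in the VTA. With the summed fibroblast markers as a covariate, an alternative added after seeing the data, 4 members kept a call between the NAc and VTA, all lower in the NAc, beside 23.8% of all genes. H2-K1 (-0.45, adjusted p = 0.101), Tap1 (-0.51, adjusted p = 0.0752), Psmb8 (-0.34, adjusted p = 0.184) and H2-T23 (0.10, adjusted p = 0.756) did not. With the same covariate 6 members were called between the VTA and PFC, all but B2m (0.32, adjusted p = 0.0868) and H2-K1 (0.46, adjusted p = 0.064), with H2-T23 lower in the VTA (-0.69, adjusted p = 0.0158) and 5 higher. In that fit 23% of all genes were called higher in the VTA and 23.7% in the PFC. In saline mice at 28-days the fibroblast sums were 24.7 to 30.7 CPM in the NAc and 43.5 to 712 in the VTA, with no overlap. Between these regions the covariate and the region cannot be told apart, and what lay behind the lost calls was not tested.

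Other genes of the pathway were described from lists written with earlier results of these data known. Of all genes, 32.6% were called higher in the VTA than in the NAc and 29.8% higher in the NAc. Against the PFC, 29.8% were called higher in the VTA. Of 20 other class I and class I-like genes, 14 passed the filter, and 11 of these were called higher in the VTA than in the NAc and 0 lower. They included H2-T22, a non-classical class I gene (NAc over VTA -0.95 ± 0.07, edgeR adjusted p = 2.89e-09), H2-M3, which presents formylated peptides (-1.50 ± 0.13, adjusted p = 2.98e-08), and Mr1, which presents vitamin metabolites (-1.35 ± 0.15, adjusted p = 4.91e-07). The list was made by locus name and so also holds H2-Ke6, a hydroxysteroid dehydrogenase. Of 9 tested genes of peptide loading and trimming, 5 were called higher in the VTA, among them the peptide trimming enzyme Erap1 (-1.01 ± 0.13, adjusted p = 3.56e-06) and the chaperone Canx (-0.47 ± 0.07, adjusted p = 5.5e-06). Of 8 proteasome genes, 5 were called higher in the VTA, and Psmb10, the third catalytic subunit of the immunoproteasome, was lower in the NAc than in both the VTA (-0.97 ± 0.16, adjusted p = 5.58e-05) and the PFC (-1.07 ± 0.16, adjusted p = 3.06e-05).

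Upstream of these genes, 8 of 11 transcriptional regulators were called higher in the VTA than in the NAc, including Irf1, an interferon regulatory factor (-0.82 ± 0.15, edgeR adjusted p = 0.000172), and Rfx5, a subunit of the complex that binds MHC promoters (-0.55 ± 0.08, adjusted p = 1.59e-05). The receptor list was mixed, with 2 of 7 genes called in each direction, near the shares of all genes (32.6% higher in the VTA and 29.8% in the NAc). Of 20 tested interferon-stimulated genes, 17 were called higher in the VTA than in the NAc and 17 higher than in the PFC, with Ifit2 at -1.59 ± 0.12 in the NAc over VTA contrast (adjusted p = 2.63e-09). Of 6 class II genes, 4 were called higher in the VTA than in the NAc, such as H2-Ab1 (-3.68 ± 0.56, adjusted p = 1.69e-05), while H2-DMa, which helps load class II molecules, was called higher in the NAc (1.45 ± 0.10, adjusted p = 1.71e-09). Of 6 genes that lie within the same stretch of chromosome 17 and have no role in presentation, 3 were called higher in the NAc and 0 in the VTA. Without saline VTA library 4 the counts of these lists between the NAc and VTA were as given, except that 14 interferon-stimulated genes were called, with 15 against the PFC. There 31.1% of all genes were called higher in the VTA than in the NAc and 28.4% higher than in the PFC. Of the list of neuronal class I receptors and partners, Cd247 and Klrd1 did not pass the filter and the third gene was not analysed here.

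The study compared cocaine with saline in each region and at each time. In the NAc at 1-day the 8 members had log2 fold changes (cocaine over saline) between -0.30 and 0.03, with a median of -0.17 against -0.0012 over all genes, and 7 were below 0. H2-K1 was at 7.71, 9.41 and 11.2 RPKM (lowest, median and highest) after saline and at 6.76, 7.53 and 8.24 after cocaine, a log2 fold change of -0.30 ± 0.09 (SE). Of the cocaine libraries 4 lay below the lowest saline library. H2-D1 was at 10.1, 10.9 and 13.8 after saline and at 8.68, 9.15 and 11.3 after cocaine (-0.25 ± 0.09), and B2m at 55.9, 68.3 and 80.0 against 54.5, 60.8 and 71.3 (-0.15 ± 0.11). The saline and cocaine ranges of each of the 8 members overlapped. Psmb8 (-0.27 ± 0.18), Tap2 (-0.19 ± 0.14), Tapbp (-0.14 ± 0.10), H2-T23 (-0.05 ± 0.12) and Tap1 (0.03 ± 0.16) had the other values. None of the 8 was called by edgeR or DESeq2, beside 0.0126% of all genes by edgeR, and 2 (H2-K1 and H2-D1) had an unadjusted p under 0.05 on the lower side, beside 1.25% of all genes.

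In the PFC at 1-day all 8 members were below 0, from -0.45 to -0.09 with a median of -0.21 (all genes -0.01). Psmb8 was at 0.972, 1.33 and 1.43 RPKM after saline and at 0.753, 0.883 and 1.11 after cocaine (-0.45 ± 0.13), where 4 cocaine libraries lay below all saline libraries. Tap1 was at 0.483, 0.569 and 0.843 against 0.391, 0.445 and 0.548 (-0.36 ± 0.16), with 5 cocaine libraries below all saline libraries, on 39 to 92 reads per library. H2-K1 was at 7.33, 9.83 and 12.2 against 6.90, 7.47 and 8.43 (-0.35 ± 0.10) and H2-D1 at 10.2, 12.6 and 13.8 against 10.1, 10.4 and 10.9 (-0.22 ± 0.07). For both heavy chains 5 of 6 saline libraries lay above every cocaine library. H2-T23 (-0.20 ± 0.11), Tap2 (-0.13 ± 0.12), B2m (-0.11 ± 0.07) and Tapbp (-0.09 ± 0.07) had smaller values. None was called by limma or by edgeR on reads recovered from the RPKM, beside 0.00693% of all genes by limma, and 4 had an unadjusted p under 0.05 on the lower side, beside 2.11% of all genes. For this comparison the paper reports differentially expressed genes that group under antigen processing and presentation. It combined several normalizations and tests at other thresholds, so its calls and those here are not like for like. Which genes these were is not given here.

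In the VTA at 1-day 1 cocaine library raised the values of all 8 members. The 8 members lay between -0.0019 and 0.31 with a median of 0.20 (all genes 0.03), and none was called by limma or by edgeR on recovered reads (background 0.0665% by limma), nor had any an unadjusted p under 0.05 (15.7% of all genes in either direction, 4.57% on the lower side). B2m was at 110, 126 and 153 RPKM after saline and at 92.5, 123 and 231 after cocaine (0.04 ± 0.18), H2-K1 at 13.9, 19.8 and 23.6 against 12.5, 21.3 and 46.0 (0.20 ± 0.26), and H2-T23 at 3.77, 4.81 and 5.65 against 3.23, 5.32 and 14.97 (0.31 ± 0.28). Cocaine library 6 was the highest for all 8 members. It also had the highest sums of fibroblast (697 CPM), endothelial (1150), blood (328) and choroid plexus (250) markers. Without it the log2 fold changes were -0.12 for B2m, -0.02 for H2-K1, 0.07 for H2-D1, 0.04 for H2-T23, -0.21 for Tap1, -0.13 for Tap2, 0.07 for Tapbp and -0.02 for Psmb8. Leaving it out did not even out the tissue. The fibroblast sum was 33.4 to 179 CPM (median 77.8) after saline and 89.0 to 697 (median 217) after cocaine. Without library 6 the fibroblast markers still had a median log2 fold change of 1.10 (0 of 6 below 0). Dopamine neuron markers had one of -0.59 (5 of 5 below 0). With the summed fibroblast markers as a covariate, added after seeing the data, all 8 members were below 0, from -0.48 to -0.24. The summed microglia markers were 460 to 648 CPM after cocaine and 687 to 938 after saline, with no overlap, and their part in these values was not tested.

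In the NAc at 28-days the light chain and the heavy chains had the values farthest from 0, and whether they differed from the other members was not tested. B2m was at 48.3, 59.1 and 64.7 RPKM after saline and at 46.3, 51.2 and 54.4 after cocaine (-0.21 ± 0.07), with 5 of 6 saline libraries above every cocaine library. H2-D1 was at 16.0, 20.4 and 24.1 against 14.02, 17.9 and 19.4 (-0.24 ± 0.10), H2-K1 at 12.4, 15.7 and 20.6 against 12.1, 13.8 and 15.5 (-0.18 ± 0.10) and H2-T23 at 5.83, 6.87 and 7.40 against 5.38, 5.95 and 6.98 (-0.16 ± 0.09). The 4 other members, Tap1 (-0.05 ± 0.15), Tap2 (0.08 ± 0.10), Tapbp (0.01 ± 0.07) and Psmb8 (-0.11 ± 0.15), lay closer to 0. None was called by edgeR or DESeq2 (background 0% by edgeR), and 2, B2m and H2-D1, had an unadjusted p under 0.05 on the lower side, beside 3.42% of all genes. The summed endothelial markers were 479 to 626 CPM (median 562) after saline and 473 to 530 (median 502) after cocaine, and their part was not tested.

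The largest cocaine values were in the VTA at 28-days. All 8 members were below 0, between -0.70 and -0.31 with a median of -0.52 (all genes -0.03). H2-K1, at 28.1, 24.1, 31.5, 61.0 and 54.6 RPKM in the 5 saline libraries and at 18.3, 20.7 and 41.4 (lowest, median and highest) after cocaine, was at 0.614 times the saline level (-0.70 ± 0.28). B2m, at 88.8, 88.5, 110.7, 164.4 and 157.4 after saline and 64.7, 76.8 and 117 after cocaine, was at 0.662 times (-0.60 ± 0.19), and 5 of 6 cocaine libraries lay below every saline library. The exception was cocaine library 4, the highest of its group for all 8 members.

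H2-T23 was at 8.12, 6.71, 7.92, 17.9 and 12.3 RPKM after saline against 5.32, 6.24 and 12.3 after cocaine (-0.53 ± 0.27), and H2-D1 at 43.9, 33.6, 39.9, 76.2 and 61.2 against 29.1, 32.9 and 49.5 (-0.52 ± 0.21). Psmb8 (3.15, 2.399, 3.21, 5.18 and 4.83 against 1.76, 2.56 and 3.87) had a log2 fold change of -0.51 ± 0.23. Tap1 had -0.49 ± 0.22, Tap2 -0.42 ± 0.16 and Tapbp -0.31 ± 0.13, and all ranges overlapped. None of the 8 was called by edgeR or DESeq2 (background 0% by edgeR), and 7, all but H2-T23, had an unadjusted p under 0.05 on the lower side, beside 6.39% of all genes.

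Saline libraries 4 and 5 carried part of this, and they were not left out together. They were the highest saline libraries for B2m, H2-K1, H2-D1, H2-T23, Tapbp, Tap1 and Psmb8, and saline library 4 had the highest sums of fibroblast (712 CPM), endothelial (1270) and blood (489) markers. Without saline library 4 the values were -0.47 for B2m, -0.50 for H2-K1, -0.33 for H2-D1, -0.27 for H2-T23, -0.32 for Tap1, -0.31 for Tap2, -0.17 for Tapbp and -0.37 for Psmb8. Without saline library 5 they lay between -0.55 (H2-K1) and -0.30 (Tapbp), and without cocaine library 4 between -0.91 (H2-K1) and -0.37 (Tapbp). With the fibroblast covariate the median was -0.30. The fibroblast sum was 43.5 to 712 CPM (median 199) after saline and 34.8 to 279 (median 79.8) after cocaine, and the endothelial sum 620 to 1270 (median 782) against 518 to 789 (median 591). The microglia sum was 603 to 1190 (median 709) after saline and 454 to 720 (median 570) after cocaine. All 14 microglia markers had log2 fold changes below 0 (median -0.36, and -0.42 without saline library 4), as had 6 of 6 oligodendrocyte markers (median -0.44, and -0.54 without it). The part of the tissue held in each punch in these values was not tested beyond that covariate.

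In the PFC at 28-days the heavy chains H2-K1 (-0.23 ± 0.11) and H2-D1 (-0.23 ± 0.09) stood below 0 and the others between -0.16 and 0.03, with a median of -0.07 (all genes 0.0004). H2-D1 was at 19.1, 23.2 and 24.4 RPKM after saline and at 16.8, 18.3 and 25.1 after cocaine, and H2-K1 at 14.8, 17.5 and 18.6 against 11.4, 13.8 and 19.1. For each, 4 cocaine libraries lay below every saline library and 1, library 4, lay above every one. B2m was at 54.3, 67.1 and 69.5 against 47.6, 62.2 and 83.3 (-0.04 ± 0.10). None was called by edgeR or DESeq2 (background 0% by edgeR), and H2-D1 alone had an unadjusted p under 0.05 by edgeR, beside 2.97% of all genes on the lower side. Without saline library 4, the one with medium spiny markers, H2-K1 was at -0.23 and H2-D1 at -0.20.

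**Figure D3:**
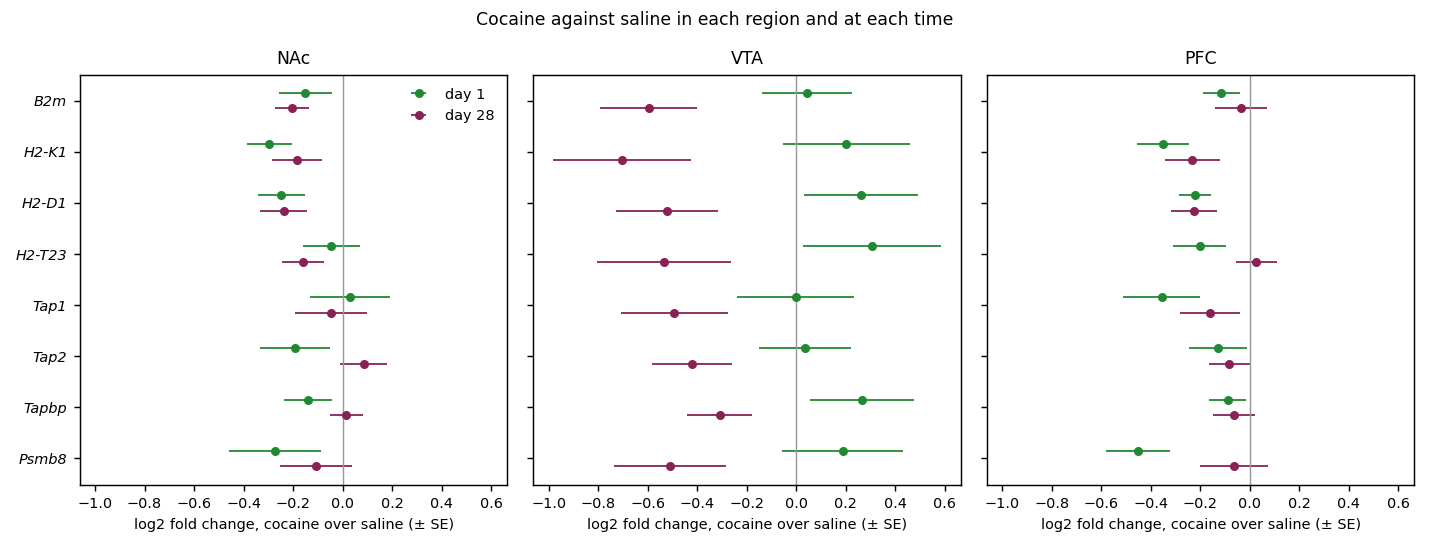
Log2 fold change of cocaine over saline (x axis, point and SE bar) of 8 members (y axis) in the NAc, VTA and PFC at day 1 (green) and day 28 (purple). Values lie between -0.70 and 0.31, the VTA has the widest SE bars, and no value was called after adjustment over all genes.

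Differences between these values were also fitted, as descriptions. In the NAc the interaction of treatment and day lay between -0.10 and 0.29 for the 8 members (median 0.07). At 28-days the VTA value minus the NAc value lay between -0.49 and -0.26 (median -0.37) and the VTA value minus the PFC value between -0.55 and -0.24 (median -0.38), while the PFC minus NAc value lay between -0.15 and 0.20. None was called by edgeR or DESeq2 in any of the 4, where edgeR called 0.0181% (NAc, day), 0.0339% (VTA against NAc), 0.0339% (VTA against PFC) and 0% (PFC against NAc) of all genes. Unadjusted p-values under 0.05 were reached by 2 members in VTA against NAc (8.34% of all genes), 2 in VTA against PFC (11.6%), and 0 in the NAc by day (5.27%) and in PFC against NAc (4.56%). Without saline VTA library 4 the median was -0.26 for VTA against NAc and for VTA against PFC. Without cocaine VTA library 4 the medians were -0.52 and -0.49.

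**Figure D4:**
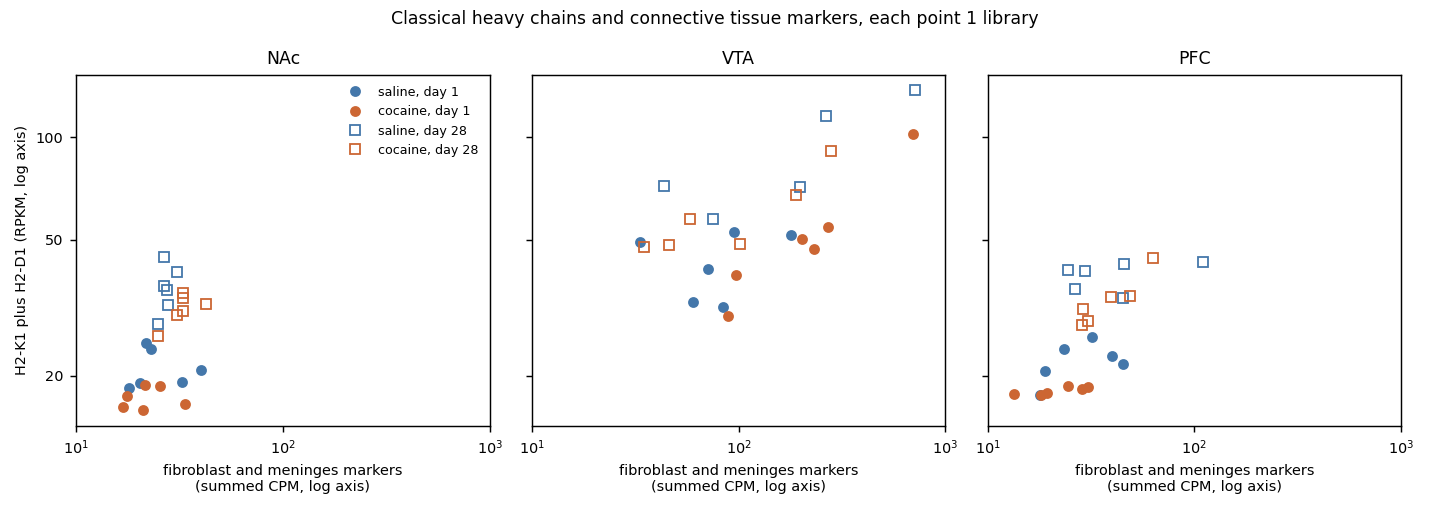
Summed level of H2-K1 and H2-D1 in RPKM (y axis, log) against the summed CPM of 6 fibroblast and meninges markers (x axis, log) in each library of the NAc, VTA and PFC, with saline in blue, cocaine in orange, filled circles for day 1 and open squares for day 28. The VTA libraries spread from 33.4 to 712 CPM of these markers, and the libraries with the highest marker sums on each day (697 and 712) also have the highest heavy chain levels.

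None of the genes of the wider pathway lists was called by the main test in the 6 cocaine comparisons (70 to 83 genes tested in each), nor by DESeq2 in the 4 tables of counts or edgeR on recovered reads in the other 2. At 1-day an unadjusted p under 0.05 was reached by 8 of 78 genes in the NAc (4.01% of all genes), 11 of 78 in the VTA (15.7%) and 11 of 70 in the PFC (3.78%). At 28-days it was reached by 10 of 80 in the NAc (6.76% of all genes), 15 of 83 in the VTA (11.5%) and 1 of 79 in the PFC (5.66%). The interferon-stimulated genes had a median log2 fold change of -0.22 in the NAc (18 of 19 below 0), -0.24 in the PFC (17 of 18) and 0.27 in the VTA (1 of 19) at 1-day, and of -0.19 in the NAc (19 of 20), -0.69 in the VTA (19 of 20) and -0.05 in the PFC (14 of 20) at 28-days. The class II genes had medians of -0.30, -0.32 and 1.39 in the NAc, PFC and VTA at 1-day and of -0.22, -0.37 and -1.15 at 28-days. Without cocaine VTA library 6 at 1-day the VTA medians were 0.09 for the interferon-stimulated genes (7 of 18 below 0) and 0.95 for class II. Without saline VTA library 4 at 28-days they were -0.42 (19 of 20 below 0) and -0.38. The VTA medians of the other class I genes and of the transcriptional regulators, given next, were -0.03 and 0.03 at 1-day without cocaine library 6 and -0.16 and -0.11 at 28-days without saline library 4. The transcriptional regulators lay between -0.16 (VTA at 28-days) and 0.09 (VTA at 1-day), the proteasome list between -0.16 and 0.02 and the loading list between 0.01 and 0.12. The other class I genes lay between -0.21 (VTA at 28-days) and 0.10 (VTA at 1-day), and the 6 neighbours on chromosome 17 between -0.10 and 0.12. Without cocaine VTA library 6 at 1-day the VTA medians of the proteasome, loading and neighbour lists were -0.004, 0.004 and 0.085. Without saline VTA library 4 at 28-days they were -0.185 (8 of 8 proteasome genes below 0), 0.037 and -0.009.

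Libraries within a group were then compared with each other, which the choice of members did not use. In each of the 11 groups of 6 libraries, B2m was related on the log2 scale to the sum of H2-K1 and H2-D1, to the summed microglia markers and to the summed endothelial markers, with two-sided exact permutation tests over the 720 pairings and Benjamini-Hochberg adjustment over the 33 relations. B2m and the heavy chains had a positive Pearson's r in 10 of 11 groups (-0.255 to 0.966, median 0.652) and passed in 4. These were cocaine VTA at 1-day (r = 0.966, Spearman's rho = 0.829), saline NAc (r = 0.932, rho = 1.00), cocaine VTA (r = 0.951, rho = 0.829) and cocaine PFC (r = 0.924, rho = 0.943) at 28-days, each with an exact adjusted p of 0.0327. Without the 2 libraries farthest from the median of the heavy chains, r in these 4 groups was 0.734, 0.818, 0.624 and 0.937.

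B2m and the endothelial markers had a positive r in 10 of 11 groups (-0.308 to 0.979, median 0.885) and also passed in 4. These were saline VTA (r = 0.979, rho = 0.886, exact adjusted p = 0.0327) and cocaine VTA (r = 0.924, rho = 0.829, exact adjusted p = 0.0401) at 1-day, and cocaine NAc (r = 0.948, rho = 0.943, exact adjusted p = 0.0327) and cocaine VTA (r = 0.885, rho = 0.943, exact adjusted p = 0.0327) at 28-days. Without the 2 farthest libraries r was 0.940, 0.660, 0.995 and 0.683. With the microglia markers r lay between -0.302 and 0.735 (median 0.160), and no group passed the exact permutation test, with or without adjustment (smallest adjusted p 0.206). With the fibroblast markers, a relation added after seeing the data and adjusted apart over 11 groups, r lay between -0.009 and 0.940 (median 0.425), 0 groups passed and 2 had an unadjusted p under 0.05. By Spearman's rho 0 of the 33 relations passed the exact test after adjustment, and 3, 0 and 3 groups had an unadjusted p under 0.05 for the heavy chains, microglia and endothelial markers. The smallest p that 720 pairings allow is 0.00139. The measures of 1 library share its depth and punch, and whether r differs between markers was not tested.

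**Figure D5:**
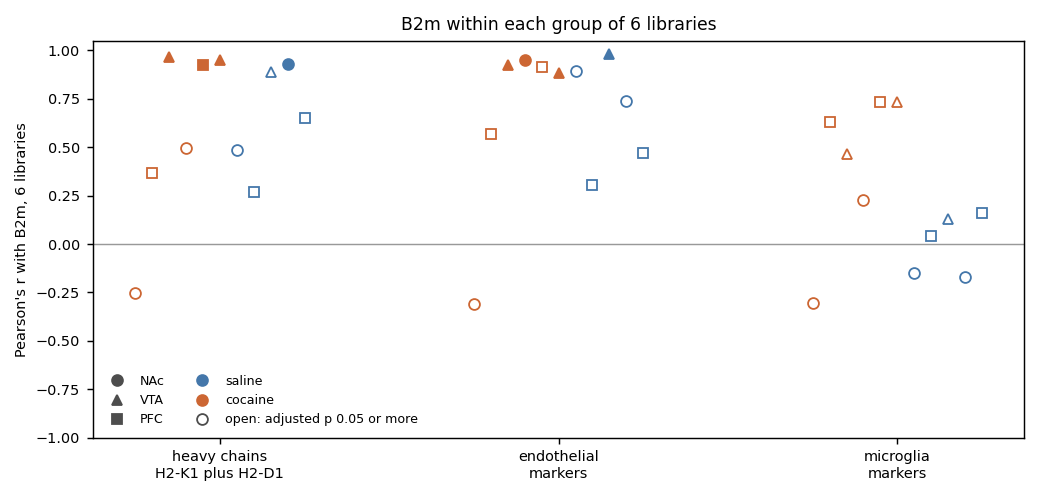
Pearson's r between B2m and the classical heavy chains, endothelial markers or microglia markers (x axis) in each of 11 groups of 6 libraries (y axis, linear), with circles for the NAc, triangles for the VTA and squares for the PFC, saline in blue, cocaine in orange, and filled symbols where the exact adjusted p was under 0.05. The filled symbols number 4 for the heavy chains, 4 for the endothelial markers and 0 for the microglia markers.

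The ratio of B2m to the sum of H2-K1 and H2-D1, both in RPKM, had group medians of 2.60 to 4.05 at 1-day and of 1.35 to 1.89 at 28-days. At 1-day it was 3.24 (saline) and 3.55 (cocaine) in the NAc. The VTA had 2.99 and 2.60, the PFC 3.65 and 4.05. At 28-days it was 1.63 and 1.65 in the NAc, with 1.36 and 1.35 for the VTA, 1.61 and 1.89 for the PFC. The lowest library at 1-day (2.23) lay above the highest at 28-days (2.09). The 2 times were deposited as separate tables, so day and table cannot be told apart.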

How the data were processed

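Groups were taken from the labels of the RNA-seq libraries. The authors aligned reads to mm9 with STAR 2.4.1d and the Ensembl annotation. The counting tool, strand and treatment of multiply mapped reads are not given in the sources used here. The authors deposited raw, unnormalized gene counts for the NAc at 1-day and all 3 regions at 28-days, and RPKM (scaled by library and gene length) for the VTA and PFC at 1-day. The tables also hold the authors' fold changes, p-values and percentages of cocaine against saline, which were not used. Column names at 28-days give the group but not the sample, and 30 columns of other samples were left out.

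Counts were fitted with edgeR 4.0.16 in R 4.3.3 (filterByExpr with a minimum count of 10 and total of 15, TMM, glmQLFit, glmQLFTest) within each table, and the RPKM values with limma 3.58.1 (trend) on log2(RPKM + 0.1) for genes whose mean RPKM reached 0.5, so their fold changes understate the change of low genes. p-values were adjusted over all genes of a fit. Whole reads were recovered from RPKM for 100% of 23353 (PFC) and 23806 (VTA) genes with reads, within a relative tolerance of 1e-08, and tested with edgeR as an alternative. On them edgeR called 55 genes in the VTA and 1 in the PFC. The region contrasts at 1-day also used these recovered reads, beside the deposited counts of the NAc. RPKM of the count tables was computed from the counts with the gene lengths that the authors' RPKM imply. Regions were tested in 1 edgeR fit of saline libraries at 28-days, and relations within groups with exact permutation tests (scipy 1.17.1).

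All 9 members are named. Of the pathway lists, counts are given and at most 4 genes per list and region contrast with the smallest adjusted p. Not every gene this rule names is reported here. The members and lists were chosen with earlier results of these data known. Of the list symbols, 5 were not matched. Alternatives were DESeq2 1.42.0, its size factors, no filter, a pseudocount of 1, values without log, a replicate block, other libraries for the regions and leaving out each library. The fibroblast covariate, limma without trend and the fibroblast relation were added after seeing the data. Promoter motifs were shortened to at most 9 letters after the windows had been read. Scripts were tested on simulated data. Between 20971967 and 49700932 reads per library were counted, and no 2 libraries of a group agreed within sampling noise.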

Additional observations from a re-analysis of the deposited data

Results flagged for a closer look

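Of 96 gene and group combinations with 5 or 6 libraries, 17 had a highest or lowest library farther from the rest than Dixon's 95% limit, which chance passes in about 1 of 20. In 8 of them the library was cocaine VTA at 1-day, library 6. It read 231 RPKM for B2m (others 92.5 to 144), 46.0 for H2-K1 (12.5 to 22.7), 56.1 for H2-D1 (17.4 to 31.9), 14.97 for H2-T23 (3.23 to 6.56), 2.74 for Tap1 (0.863 to 1.42), 5.49 for Tap2 (2.12 to 3.31), 25.8 for Tapbp (9.23 to 13.2) and 5.35 for Psmb8 (1.32 to 2.68). Its fibroblast marker sum was 697 CPM, and the part of that in these levels was not tested.

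In cocaine VTA at 28-days, library 4 was high for B2m (117 RPKM, others 64.7 to 83.8) and H2-T23 (12.3, others 5.32 to 7.81). In cocaine PFC at 28-days, library 4 was high for H2-D1 (25.1, others 16.8 to 19.4) and H2-T23 (12.2, others 10.2 to 10.8). In the saline PFC at 28-days, library 2 was low for B2m (54.3, others 64.5 to 69.5) and library 1 high for Tap2 (3.22, others 2.48 to 2.65). In the PFC at 1-day, cocaine library 5 was high for B2m (83.4, others 70.7 to 74.1), cocaine library 1 high for Tap2 (1.20, others 0.848 to 0.978) and saline library 5 low for Psmb8 (0.972, others 1.30 to 1.43).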

How the results depend on the processing

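No member was called in any cocaine comparison or interaction under any alternative run, so those counts stayed at 0. Of the members' cocaine values, none moved by more than the spread between replicates with a library left out, while under the other alternatives 223 moved by less and 9 by more, all 9 with the fibroblast covariate. They were the 8 members in the VTA at 1-day and Tap2 in the NAc at 28-days (-0.10). Leaving out 1 library can shift a group mean by only part of the spread between replicates, so that outcome is no sign of stability. Several cocaine values changed sign with a library left out. In the VTA at 1-day B2m ranged from -0.12 to 0.14, H2-K1 from -0.02 to 0.36 and Tap1 from -0.21 to 0.10. In the PFC at 28-days B2m ranged from -0.13 to 0.03.

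Between regions, the fibroblast covariate left 4 members called for NAc against VTA, with H2-T23 at 0.10, and the cocaine libraries gave 2 for NAc against PFC. Leaving out libraries gave 7 to 8 members called for NAc against VTA, 1 for NAc against PFC and 7 to 8 for VTA against PFC. Several uncalled log2 fold changes for NAc over PFC changed sign. They were Tap1 (0.10), Tap2 (0.039) and Tapbp (0.058) in the cocaine libraries, Tap2 (0.13), Tapbp (0.075) and Psmb8 (-0.18) in the 1-day libraries, and H2-K1 (0.0088), Tap1 (0.12) and Tapbp (0.0675) with the covariate. With a library left out, Tap1 ranged from -0.0873 to 0.0896 and Tapbp from -0.0605 to 0.0326. The cause was not tested.

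DESeq2 called more genes than edgeR in the NAc at 1-day (21 against 2) and in the NAc (14 against 0), VTA (74 against 0) and PFC (2 against 0) at 28-days, and in the interactions with day (10 against 3), VTA against NAc (32 against 6) and VTA against PFC (93 against 6). In the VTA at 1-day limma called 10 genes, limma without trend 28, edgeR on recovered reads 55 and limma with the covariate 0.

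With the replicate block, 0 members were called at 1-day in the NAc, VTA and PFC, and 2, 60 and 1 genes in all (2, 10 and 1 without it). Deviations of same-numbered libraries correlated at -0.47 to 0.601 in the NAc, -0.246 to 0.435 in the VTA and -0.223 to 0.0308 in the PFC. Number 6 in the NAc and numbers 5 and 6 in the VTA matched each other best, while not every library did. These values cannot show whether same-numbered libraries share more than a number. At 28-days the columns carry no number of the labels, so no block was fitted.

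B2m was related to the heavy chains in 4 groups, or 5 without the log, and to the endothelial markers in 4, or 5 with DESeq2's size factors. With those size factors the heavy chain relation again passed in 4 groups, but saline NAc at 28-days did not (exact adjusted p = 0.0551) and saline VTA at 1-day did (exact adjusted p = 0.0401). The limits lie in the number of libraries, in the near copies among the heavy chains and in Tap1 and Psmb8, which rest on as few as 33 and 36 reads in a library.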
